A study of Mus musculus with 2 samples.

Results

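The genes examined were the ligands, receptors and close partners of TGF-β and activin signaling, namely Tgfb1, Tgfb2, Tgfb3, Inhba, Tgfbr1, Tgfbr2, Tgfbr3, Ltbp1 and Tgfbi. They were taken by gene symbol, and all 9 were found among the 32285 genes of the tables. Single cells were profiled with 10x Genomics 3' chemistry from 2 orthotopic pancreatic tumors, 1 per group. KPC cells, a mouse pancreatic cancer line from a genetically engineered Pdx-1-Cre model, stably carried a lentiviral control (KPC-shV) or a lentiviral hairpin directed at Zeb1 (KPC-shZEB1), and were injected into the mouse pancreas. The study describes gemcitabine treatment of these mice, which the sample labels do not mention. Each tumor was dissociated with collagenase and trypsin, so that the cells measured were those that survived digestion, and mouse, tumor, library and hairpin cannot be told apart.

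The 3 TGF-β ligands are secreted as latent dimers, bound in most tissues to latent TGF-β binding proteins that anchor them in the matrix until integrins or proteases free them. Active ligand binds the type II receptor TGFBR2, which recruits and phosphorylates the type I receptor TGFBR1, and SMAD2 and SMAD3 then carry the signal to the nucleus. Activin A, a dimer of the inhibin βA chain encoded by Inhba, uses its own receptors and the same SMADs. In pancreatic cancer TGF-β is known both as a growth inhibitor of epithelial cells and as an inducer of epithelial-mesenchymal transition, of fibroblast matrix production and of immune suppression.

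The filters left 11398 cells of the library labelled KPC-shV, with 101201512 unique molecular identifiers (UMIs), and 12104 cells of the library labelled KPC-shZEB1, with 118943000 UMIs. The median cell had 3720 UMIs in the former and 4252 in the latter. The libraries shared 46 cell barcodes, 0.365% and 0.347% of their barcodes. Cells fell into 28 clusters, which were named from marker genes, and 13 named classes held at least 20 cells in each library. Acinar-like, pericyte- or smooth-muscle-like and plasmacytoid dendritic-like cells were too few to be placed in the order of classes. Granulocyte-like cells, the most common class, made up 60.2% and 35.7% of the cells, with a median of only 3147 and 2910 UMIs, against 29139 and 28011 UMIs in fibroblast-like cells. Each gene's UMIs were added up across a class and divided by all UMIs of that class, which gives counts per 1000000 (CPM), the KPC-shV library before the KPC-shZEB1 library throughout. Intervals are 95% intervals that cover counting error only, since no group had a replicate, and no test was made.

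The targeted gene was read first. Zeb1, a transcription factor of epithelial-mesenchymal transition, reached 122.9 and 152.6 CPM in Epcam-high tumor-like cells and 220.3 and 244.1 CPM in Epcam-low tumor-like cells. It was thus no lower in the library labelled KPC-shZEB1 than in the library labelled KPC-shV, and every difference between libraries below is a difference between libraries so labelled. Whether reads from introns were counted is not given in the sources used here.

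Tumor-like cells formed 4 clusters, which were divided by their level of Epcam, an epithelial adhesion molecule. Epcam-high cells were the cluster led by Epcam and Fermt1 (634 and 682 cells) together with a cluster of few UMIs led by Dbf4 and S100a14 (307 and 305 cells). Epcam-low cells were the cluster led by Prg4, Cntn5 and Grem1 (538 and 209 cells) together with a cluster led by Zfp804b and Ralyl that came almost entirely from the KPC-shZEB1 library (9 and 229 cells). Epcam stood at 577.5 and 610.4 CPM in Epcam-high cells, at 22.4 and 30.9 CPM in Epcam-low cells and at 27.6 and 40.1 CPM in B-like cells, so that the Epcam-low level was no higher than in a class that should lack the gene. Over both libraries the Prg4 and Zfp804b clusters still had the epithelial keratin Krt8 at 676 and 921 CPM, against 148 CPM in the median cluster, and Cdkn2a, chosen after its values were seen, at 359 and 601 CPM against 22.7 CPM. The Prg4 cluster was named tumor-like by a narrow margin, with a mean marker score of 0.129 against 0.115 for the next class. In the Zfp804b cluster these scores were 0.223 and 0.055. The 8 tumor markers summed to 1622 and 1989 CPM in the Prg4 cluster, against 6290 and 7078 CPM in the Epcam cluster. The 6 fibroblast markers summed to 1627 and 1754 CPM in the Prg4 cluster. The few-UMI cluster lay close to the boundary set at a share of 0.5 of the highest cluster.

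Markers of other cell types were found in most classes, at levels that differed between the libraries, and whether they came from free RNA was not tested. In B-like cells the summed level of 7 monocyte and macrophage markers was 806 and 2109 CPM, and that of 7 granulocyte markers 932 and 488 CPM. Macrophage markers were likewise higher in the KPC-shZEB1 library in Epcam-high (722 and 1742 CPM) and Epcam-low (516 and 1583 CPM) tumor-like cells.

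**Figure D1:**
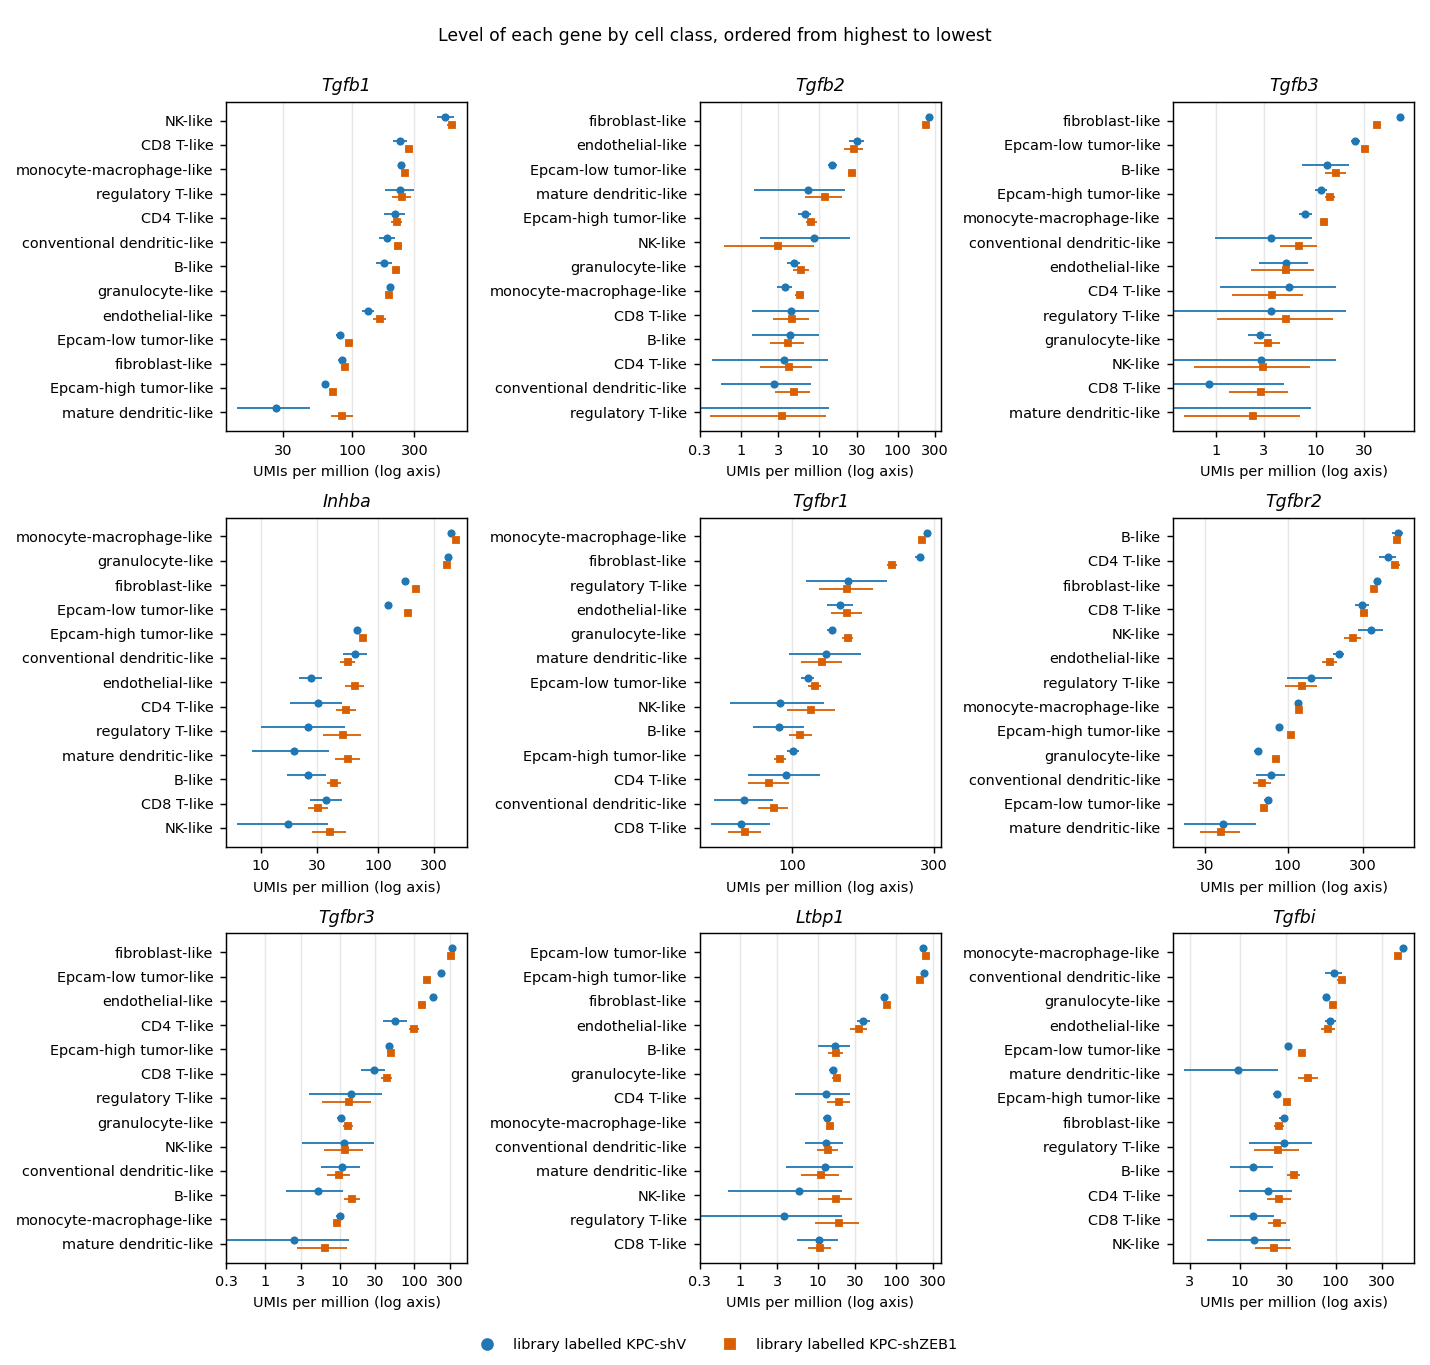
Level of each of the 9 genes in 13 cell classes, as UMIs per 1000000 UMIs of the class on a log axis, with circles for the library labelled KPC-shV, squares for the library labelled KPC-shZEB1 and 95% counting intervals. Classes are ordered within each panel by the mean of both libraries, levels of 0 are not drawn and axes stop at 0.3 at the low end. Tgfb1 was highest in NK-like cells, Tgfb2, Tgfb3 and Tgfbr3 in fibroblast-like cells, Inhba, Tgfbr1 and Tgfbi in monocyte-macrophage-like cells, Tgfbr2 in B-like cells and Ltbp1 in tumor-like cells.

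The 3 TGF-β ligands came from different cells. Tgfb1 (ENSMUSG00000002603, chr7:25687002-25705077 on the plus strand of GRCm38), the main ligand of immune cells, was highest in NK-like cells at 516 and 577 CPM. CD8 T-like cells followed at 234 and 273 CPM, monocyte-macrophage-like cells at 237 and 256 CPM and regulatory T-like cells at 233 and 240 CPM. These last 3 classes did not differ beyond the spread of the libraries. The CD4 T-like, conventional dendritic-like, B-like and granulocyte-like cells below them lay between 177 and 225 CPM, and each overlapped with its neighbor in this order. The ends of that run did not overlap, with CD4 T-like cells at 213 and 221 CPM and granulocyte-like cells at 194 and 191 CPM. Tumor-like and fibroblast-like cells stood lower, with 80.4 and 95.8 CPM in Epcam-low cells, with 83.6 and 88.0 CPM for fibroblast-like cells, and with 62.6 and 71.2 CPM in Epcam-high cells. Because the myeloid classes were large, monocyte-macrophage-like and granulocyte-like cells together still held 66.7% and 59.2% of all Tgfb1 UMIs.

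Tgfb2 (ENSMUSG00000039239, chr1:186622792-186705989, minus strand), a ligand made by mesenchymal and developing tissues, was largely a fibroblast transcript. It reached 246 and 228 CPM in fibroblast-like cells, against 29.9 and 27.6 CPM in endothelial-like cells and 14.7 and 26.2 CPM in Epcam-low tumor-like cells. The remaining classes of the 13 all lay at or under 11.8 CPM, and regulatory T-like cells of the KPC-shV library had 0 UMIs, which allows up to 10.8 CPM. Outside this order, pericyte- or smooth-muscle-like cells, only 14 and 10 cells, had 326 and 316 CPM of Tgfb2. Fibroblast-like cells, only 3.17% and 3.15% of the cells, held 77.8% and 66.9% of all Tgfb2 UMIs. At least 1 Tgfb2 UMI was seen in 73.7% and 69.3% of fibroblast-like cells and in 1.73% and 1.47% of B-like cells, whose medians were 3732 and 3417.5 UMIs. With every cell thinned to 1000 UMIs the shares were 15.8% and 12.6% in fibroblast-like cells and 0.346% and 0.489% in B-like cells.

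Tgfb3 (ENSMUSG00000021253, chr12:86056745-86079041, minus strand), the third isoform, followed the same first rank with a smaller lead. Fibroblast-like cells had 68.7 and 40.4 CPM and Epcam-low tumor-like cells 24.6 and 30.5 CPM. B-like cells at 12.9 and 15.7 CPM, Epcam-high tumor-like cells at 11.3 and 13.7 CPM and monocyte-macrophage-like cells at 7.79 and 11.9 CPM came next, and each overlapped with its neighbor in this order. In the KPC-shZEB1 library more of the Tgfb3 UMIs lay in tumor-like cells (38.6%) than in fibroblast-like cells (24.3%), whereas in the KPC-shV library the shares were 36.0% and 45.1%.

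Inhba (ENSMUSG00000041324, chr13:16011851-16031621, plus strand), the activin A subunit, was a myeloid transcript. It stood at 420 and 458 CPM in monocyte-macrophage-like cells and at 397 and 388 CPM in granulocyte-like cells. Fibroblast-like cells had 171 and 210 CPM and Epcam-low tumor-like cells 121 and 180 CPM, ranges that overlapped, while Epcam-high tumor-like cells had 65.7 and 74.8 CPM. The myeloid pair held 78.0% and 75.5% of all Inhba UMIs. Granulocyte-like cells held 37.3% of Inhba UMIs in the KPC-shV library and 17.1% in the KPC-shZEB1 library, and monocyte-macrophage-like cells 40.7% and 58.4%. At least 1 Inhba UMI was seen in 52.2% and 61.8% of monocyte-macrophage-like cells, at medians of 13286 and 14494 UMIs, and in 9.69% and 13.9% of B-like cells. With cells thinned to 1000 UMIs these shares were 18.3% and 21.6% against 2.42% and 4.405%.

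**Figure D2:**
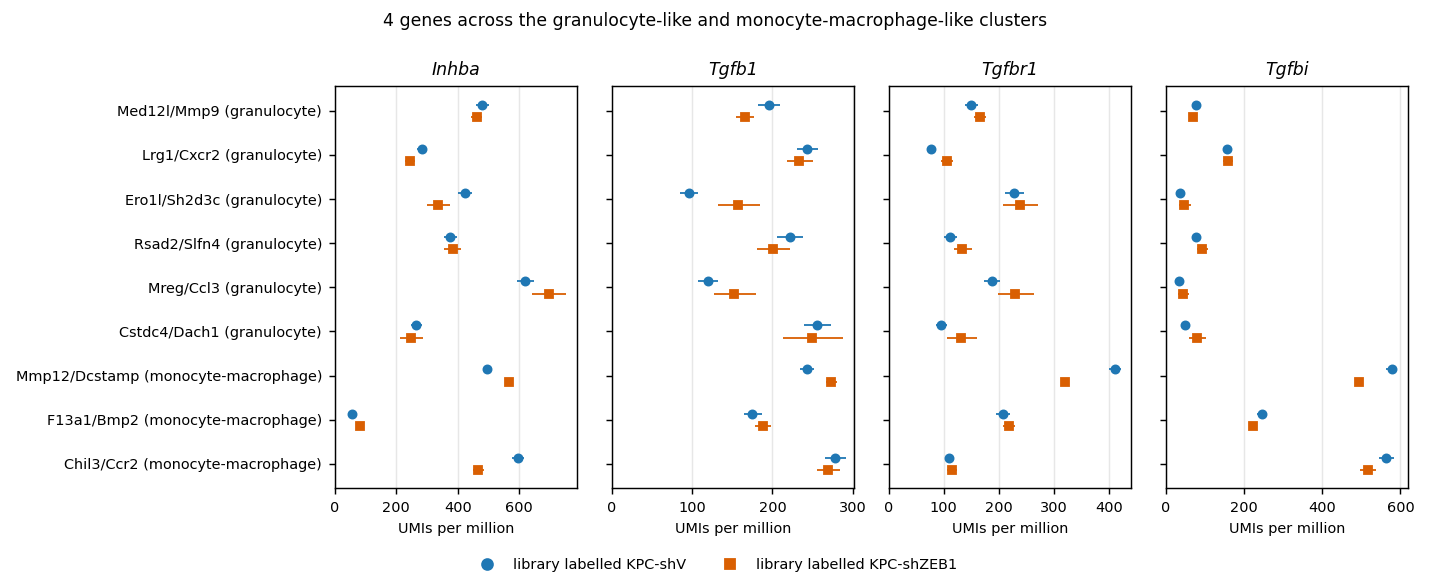
Levels of Inhba, Tgfb1, Tgfbr1 and Tgfbi in 9 granulocyte-like and monocyte-macrophage-like clusters, each named by its leading genes, as UMIs per 1000000 with 95% counting intervals (circles, library labelled KPC-shV; squares, library labelled KPC-shZEB1). Inhba was lowest in the F13a1 cluster and highest in the Mreg cluster, Tgfbi was higher in each monocyte-macrophage-like cluster than in any granulocyte-like cluster, and a granulocyte-like cluster of 65 cells is not drawn.

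Myeloid clusters differed among themselves. Inhba was lowest in the macrophage cluster led by F13a1 and Bmp2, which also had Lyve1 and Folr2, markers of tissue-resident macrophages, among its leading genes, at 56.5 and 81.6 CPM. It was 494 and 568 CPM in the cluster led by Mmp12 and Dcstamp and 594 and 467 CPM in the cluster led by Chil3 and Ccr2, a chemokine receptor of monocytes. Among granulocyte-like clusters it was 283 and 243 CPM in the one led by Lrg1 and Cxcr2, the chemokine receptor of circulating neutrophils, and 619 and 696 CPM in the one led by Mreg and Ccl3. Tgfb1 moved in the other direction across that pair, at 243 and 233 CPM in the Lrg1 cluster and 119 and 152 CPM in the Mreg cluster. The members were kept out of the genes that set the clusters, so the clusters were not drawn on these values.

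The receptors had separate leading classes. Tgfbr1 (ENSMUSG00000007613, chr4:47353222-47414931, plus strand), the type I kinase, was highest in monocyte-macrophage-like cells at 283 and 273 CPM and then in fibroblast-like cells at 268 and 216 CPM. Among macrophage clusters it was 411 and 320 CPM in the Mmp12 cluster, 208 and 218 CPM in the F13a1 cluster and 110 and 115 CPM in the Chil3 cluster. Regulatory T-like, endothelial-like and granulocyte-like cells lay between 136 and 154 CPM and did not differ beyond the spread of the libraries. CD8 T-like cells had the lowest mean level, 67.3 and 69.3 CPM.

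Tgfbr2 (ENSMUSG00000032440, chr9:116084293-116175360, minus strand), the ligand-binding type II kinase, had its highest levels in lymphocyte-like and fibroblast-like cells. B-like cells had 498 and 494 CPM, CD4 T-like cells 428 and 480 CPM and fibroblast-like cells 368 and 353 CPM. CD8 T-like cells at 296 and 304 CPM and NK-like cells at 335 and 257 CPM overlapped. Regulatory T-like cells, at 140 and 122 CPM, stood below the other T cell classes. Tumor-like cells were near the bottom of the order, with 88.5 and 105 CPM in Epcam-high and 75.2 and 70.7 CPM in Epcam-low cells, and mature dendritic-like cells were lowest at 38.6 and 37.7 CPM. Monocyte-macrophage-like and granulocyte-like cells, at lower levels, still held 31.2% and 30.4% of all Tgfbr2 UMIs together. Tumor-like cells held 21.3% and 16.6%.

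Tgfbr3 (ENSMUSG00000029287, chr5:107106570-107289629, minus strand) encodes betaglycan, a coreceptor that presents ligand, TGF-β2 above all, to the type II receptor. Fibroblast-like cells had 322 and 313 CPM, Epcam-low tumor-like cells 231 and 148 CPM and endothelial-like cells 179 and 126 CPM, and the last 2 ranges overlapped. CD4 T-like cells followed at 55.6 and 99.6 CPM and Epcam-high tumor-like cells at 45.3 and 48.4 CPM. Tumor-like cells held 49.3% and 39.0% of all Tgfbr3 UMIs, and fibroblast-like cells 38.6% and 44.1%.

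Ltbp1 (ENSMUSG00000001870, chr17:75005568-75392512, plus strand), which encodes a latent TGF-β binding protein, was the member most concentrated in tumor-like cells. Epcam-low cells had 221 and 244 CPM and Epcam-high cells 228 and 204 CPM, ranges that overlapped, against 69.0 and 75.5 CPM in fibroblast-like cells and 38.0 and 33.1 CPM in endothelial-like cells. The remaining classes of the 13 lay between 3.59 and 18.5 CPM. Tumor-like cells held 82.7% and 78.9% of all Ltbp1 UMIs. The transcript was seen in 85.4% and 86.3% of Epcam-low cells, in 58.2% and 60.9% of Epcam-high cells and in 6.57% and 5.95% of B-like cells. Thinned to 1000 UMIs, 20.5% and 20.3% of Epcam-low cells and 14.9% and 14.1% of Epcam-high cells had it, against 1.73% and 1.71% of B-like cells.

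Tgfbi (ENSMUSG00000035493, chr13:56609523-56639562, plus strand), a secreted matrix protein named for its induction by TGF-β, was a macrophage transcript here. It stood at 498 and 443 CPM in monocyte-macrophage-like cells and at 95.03 and 115 CPM in conventional dendritic-like cells. Fibroblast-like cells, the class with the most Tgfb2, had only 28.7 and 25.5 CPM, near the 24.6 and 31.1 CPM of Epcam-high tumor-like cells. Among myeloid clusters it was 578 and 495 CPM in the Mmp12 cluster and 564 and 517 CPM in the Chil3 cluster, 247 and 223 CPM in the F13a1 cluster and at most 159 CPM in the granulocyte-like clusters. Monocyte-macrophage-like and granulocyte-like cells held 88.6% and 87.5% of all Tgfbi UMIs.

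Epcam-low were compared with Epcam-high tumor-like cells within each library, to describe how the pathway differs between tumor cells with and without this epithelial marker. A gene was counted as different where its level changed by at least 1.5-fold with a counting interval that excluded 1 in both libraries. Of the 9 members, 4 were higher in Epcam-low cells and none was lower, beside 18.6% of the 14327 genes with at least 30 UMIs, 8.46% higher and 10.1% lower. The 4 were Tgfb2, Tgfb3, Inhba and the coreceptor Tgfbr3. The median log2 ratio of the members was 0.38 and 0.51, against 0.05 and 0.00 for all genes.

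**Figure D3:**
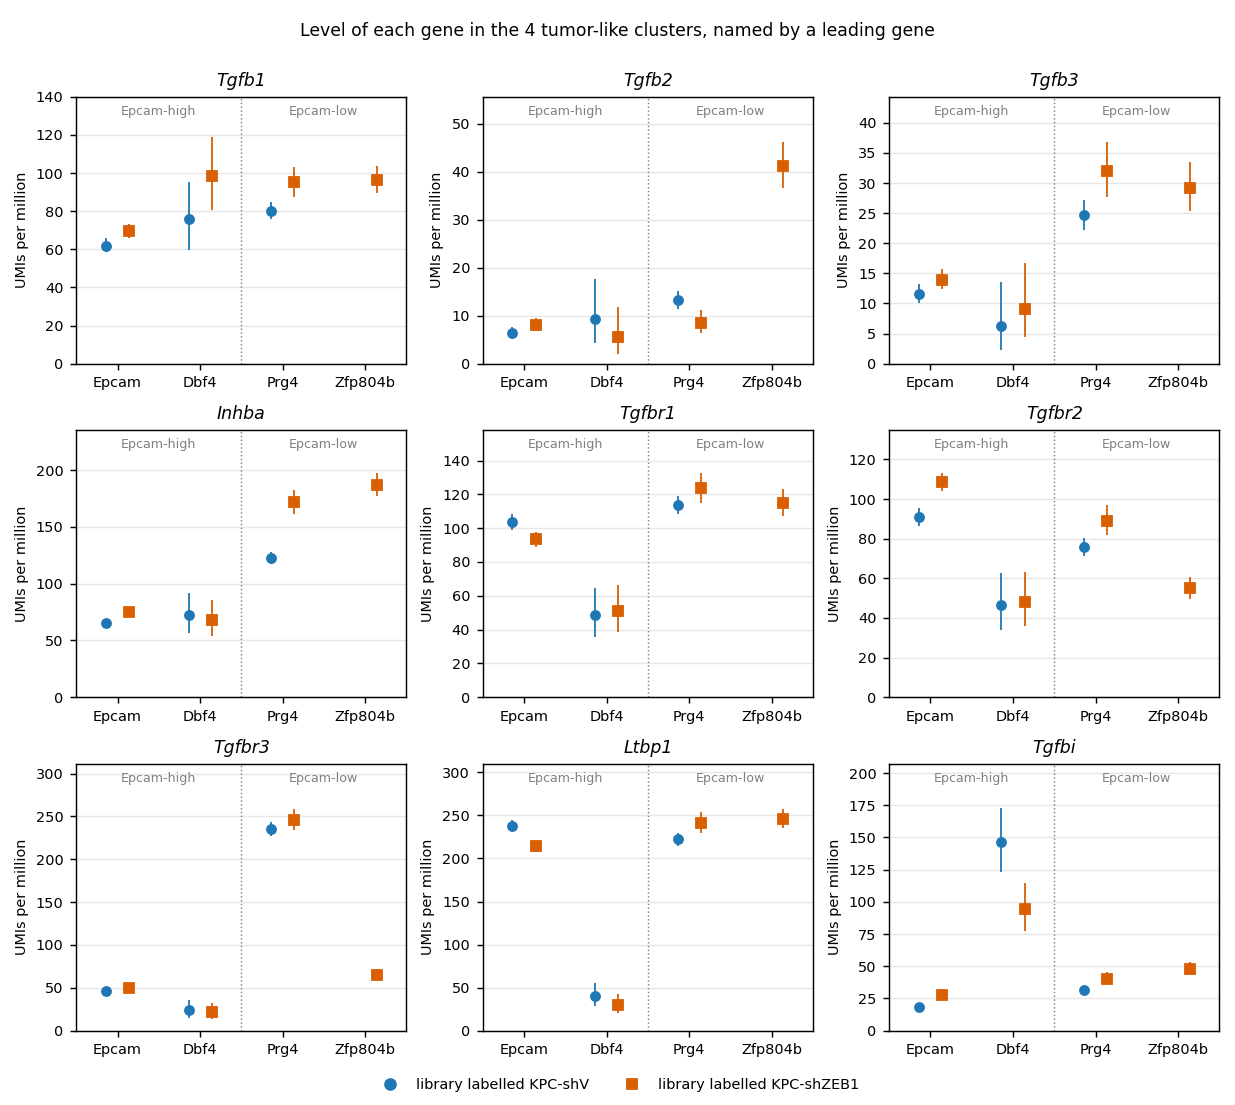
Level of each of the 9 genes in the 4 tumor-like clusters, as UMIs per 1000000 with 95% counting intervals (circles, library labelled KPC-shV; squares, library labelled KPC-shZEB1). Tgfb3, Inhba and Tgfbr3 stood higher in both Epcam-low clusters than in both Epcam-high clusters, with Tgfbr3 highest in the Prg4 cluster. Tgfb2 was highest in the Zfp804b cluster, and the 9 Zfp804b cells of the KPC-shV library are not drawn.

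Tgfbr3 had a ratio, Epcam-low over Epcam-high, of 5.10 (4.74 to 5.50) in the KPC-shV library and 3.07 (2.84 to 3.31) in the KPC-shZEB1 library. Inhba was higher in Epcam-low cells 1.85-fold (1.72 to 1.99) and 2.41-fold (2.26 to 2.57). Tgfb3 was higher 2.18-fold (1.84 to 2.58) and 2.23-fold (1.91 to 2.61). Tgfb2 was higher 2.26-fold (1.80 to 2.83) and 3.30-fold (2.74 to 4.00). These calls depended on how the cells were divided, apart from that of Tgfbr3. With the KPC-shV library clustered alone the ratios there turned to 0.599 for Tgfb2, 0.944 for Tgfb3 and 0.772 for Inhba, and with cells split by the presence of an Epcam UMI only 1 member passed in both libraries. Clustered alone, the KPC-shV library had 284 Epcam-high and 757 Epcam-low cells, against 941 and 547 in the main setting. Those ratios therefore did not compare the same sets of cells. The other members had ratios of 1.28 and 1.34 for Tgfb1, 1.12 and 1.31 for Tgfbr1, 0.970 and 1.20 for Ltbp1 and 1.30 and 1.43 for Tgfbi. Tgfbr2 was the single member on the lower side in both libraries, at 0.850 and 0.671, and it passed in neither.

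Fibroblast RNA moved with this difference, and its part in it was not tested. The summed level of 6 fibroblast markers, all above 0, was 533 and 632 CPM in Epcam-high cells and 1621 and 1454 CPM in Epcam-low cells. Fibroblast-like cells themselves had 32327 and 36831 CPM. In the Prg4 cluster these markers stood at 5.03% and 4.76% of their fibroblast-like level. The collagens carried most of that sum, and single markers ran from 1.30% and 1.52% for Col1a2 to 20.6% and 24.4% for Lum and 22.5% and 34.5% for Pdgfra, the receptor of platelet-derived growth factor on fibroblasts. Tgfbr3 stood there at 73.0% and 78.6% of its own fibroblast-like level, Inhba at 71.5% and 82.1% and Tgfb3 at 35.9% and 79.3%. For Tgfb2 the share was 5.37% and 3.76% there, but in the Zfp804b cluster of the KPC-shZEB1 library it was 18.1%, with the markers at 3.25%. In that cluster 5 cells held 63.5% of the Tgfb2 UMIs. With tumor-like cells limited to those under the median share of fibroblast markers, a setting added after the data were seen, 3 members were higher in both libraries, and Tgfb2 was not among them (1.26 in the KPC-shZEB1 library).

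The clusters behind the Epcam-low class were not alike. In the KPC-shZEB1 library, which held both, Tgfbr3 was 246 CPM in the Prg4 cluster and 65.4 CPM in the Zfp804b cluster, a ratio of 0.266 (0.239 to 0.295). Tgfbr2 was 89.0 and 55.0 CPM, a ratio of 0.618 (0.542 to 0.704). Tgfb2 went the other way, at 8.58 CPM in the Prg4 cluster and 41.2 CPM in the Zfp804b cluster. A single cell held 108 of the 299 Tgfb2 UMIs of the Zfp804b cluster, and without its 5 cells with the most UMIs the level was 15.3 CPM. Inhba (172 and 187 CPM), Tgfb3 (32.1 and 29.2 CPM) and Ltbp1 (242 and 246 CPM) were close in both clusters, with intervals of the ratio of 1.00 to 1.18, 0.748 to 1.11 and 0.951 to 1.09.

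The few-UMI cluster of Epcam-high cells stood apart as well. Ltbp1 was 40.5 and 30.1 CPM there, against 238 and 214 CPM in the Epcam cluster. Tgfbi, in contrast, was 146 and 94.7 CPM there and 18.0 and 27.5 CPM in the Epcam cluster. Monocyte and macrophage markers summed to 4372 and 6053 CPM in the few-UMI cluster and to 526 and 1499 CPM in the Epcam cluster, and their part in the Tgfbi level was not tested. Between the libraries Tgfbi was lower in the few-UMI cluster of the KPC-shZEB1 library, at 0.648 (0.498 to 0.840), where 9.29% of genes passed 1.5-fold.

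**Figure D4:**
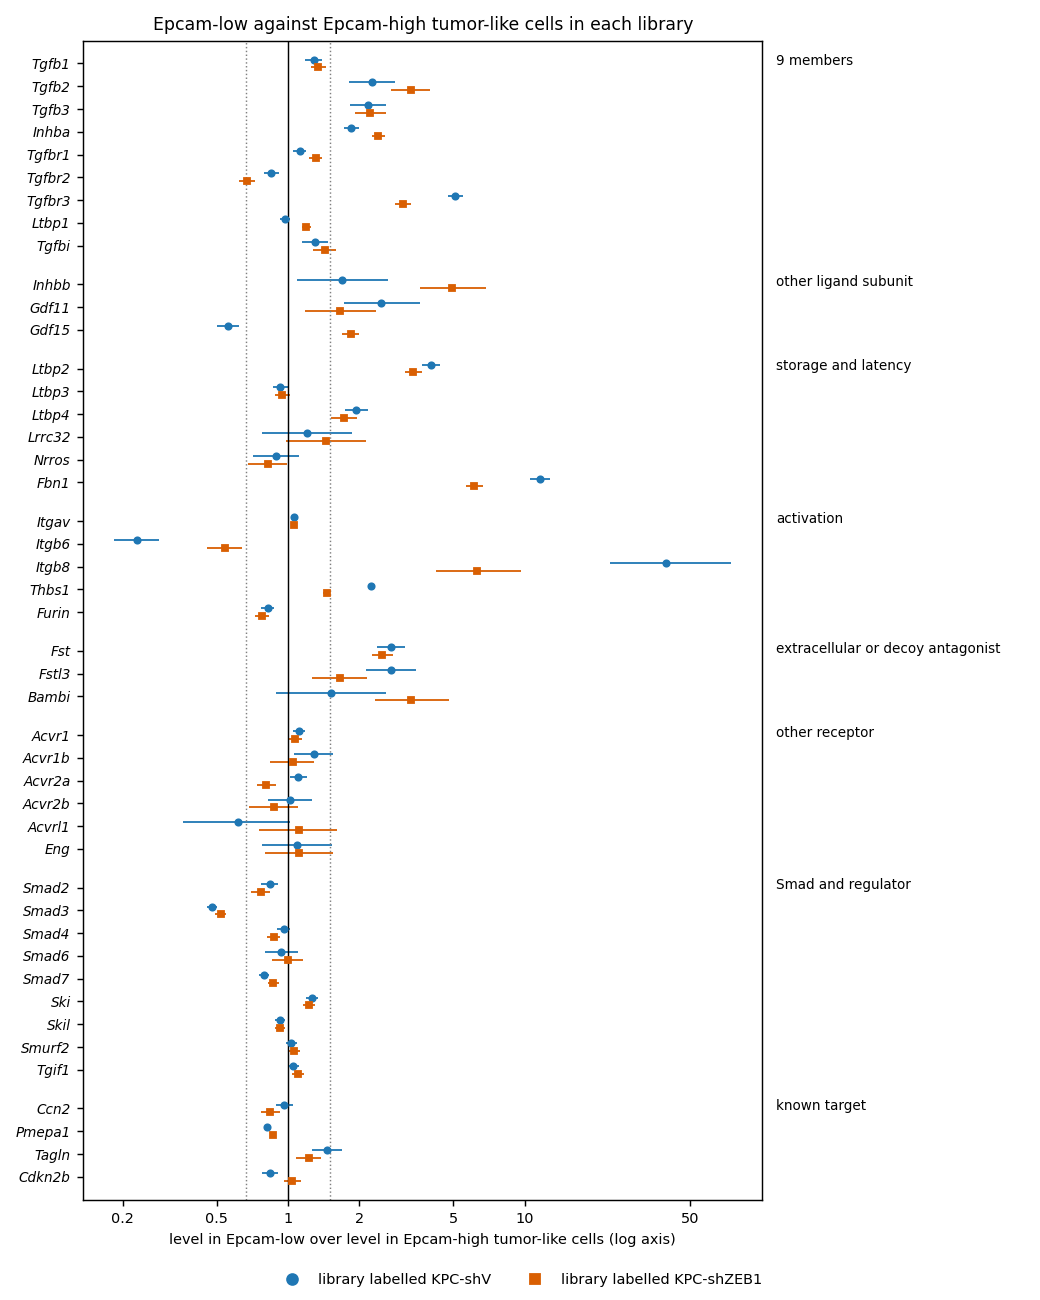
Level in Epcam-low over level in Epcam-high tumor-like cells (log axis) for the 9 members and for all but 1 of the pathway genes with enough UMIs, grouped by role, with 95% counting intervals, a solid line at 1 and dotted lines at 1.5-fold (circles, library labelled KPC-shV; squares, library labelled KPC-shZEB1). Among the pathway genes Fbn1 and Itgb8 lie far to the right, and Itgb6 and Smad3 to the left.

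The other genes of the pathway were read the same way from a list of 40, of which 37 had enough UMIs. In Epcam-low cells 8 were higher and 2 were lower in both libraries, beside 8.46% and 10.1% of all genes. Matrix and storage genes took 3 of the 8, with Fbn1, the fibrillin that holds latent complexes, at 11.6 and 6.13, Ltbp2 at 4.03 and 3.38 and Ltbp4 at 1.95 and 1.73. The integrin chains that activate latent TGF-β were divided, since Itgb8 was higher at 39.5 and 6.32 and the epithelial chain Itgb6 was lower at 0.230 and 0.541. The Itgb8 ratio of 39.5 (22.9 to 74.9) rested on only 13 UMIs in Epcam-high cells of the KPC-shV library. In the KPC-shZEB1 library the interval was 4.24 to 9.68. The activin antagonist Fst (2.72 and 2.50) and its relative Fstl3 (2.71 and 1.65) were higher beside Inhba, as were the ligand subunit genes Inhbb and Gdf11. Among the 9 Smad and regulator genes only Smad3, at 0.476 and 0.519, passed, and it was lower. None of the 6 other receptors with enough UMIs and none of the known targets Ccn2, Pmepa1, Tagln and Cdkn2b passed in both libraries. Gdf15, a stress-induced relative of the ligands, was lower in Epcam-low cells of the KPC-shV library (0.558) and higher in those of the KPC-shZEB1 library (1.84).

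The libraries were then compared within each class, as the level in the library labelled KPC-shZEB1 over that in the library labelled KPC-shV (Zeb1 was not lower in the former). In Epcam-high cells none of the 9 members passed 1.5-fold, beside 11.3% of the 14958 genes with enough UMIs. Their ratios lay between 0.896 for Ltbp1 and 1.26 for Tgfbi. The Epcam cluster on its own gave Tgfbi 18.0 and 27.5 CPM, a ratio of 1.52 (1.32 to 1.76), beside 11.5% of genes passing, with the macrophage markers at 526 and 1499 CPM. Of the pathway list, Nrros, Itgb8, Fst and Tagln were higher in Epcam-high cells and none was lower. Itgb8 rested on only 13 and 31 UMIs. Fst was also higher in fibroblast-like, granulocyte-like and monocyte-macrophage-like cells. Macrophage markers stood at 722 and 1742 CPM in Epcam-high cells, and their part in the Nrros level was not tested.

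In Epcam-low cells 2 of 9 members passed, beside 17.9% of the 14287 genes. Tgfb2, at 14.7 and 26.2 CPM, was higher in the KPC-shZEB1 library 1.78-fold (1.51 to 2.12), or 1.19-fold and not past 1.5-fold without the 5 cells with the most UMIs, and Tgfbr3, at 231 and 148 CPM, was lower with a ratio of 0.642 (0.608 to 0.678). Both followed the Zfp804b cluster, which the KPC-shV library almost lacked. Within the Prg4 cluster, which both libraries held, Tgfb2 was 13.2 and 8.58 CPM, a ratio of 0.649 (0.470 to 0.882) in the opposite direction, and Tgfbr3 was 235 and 246 CPM, a ratio of 1.05 (0.985 to 1.11). In that cluster 10.1% of genes passed. Inhba, at 121 and 180 CPM in all Epcam-low cells, had a ratio of 1.48 (1.40 to 1.58) and did not pass, and the Prg4 cluster alone gave 1.41 (1.30 to 1.52). In the pathway list 6 genes were higher (Inhbb, Gdf15, Itgb6, Fst, Bambi and Acvrl1) and 2 were lower (Itgb8 and Fstl3). These genes were not read in the Prg4 cluster alone, so the part of the Zfp804b cluster in their ratios was not tested. Some counts were low, with 24 and 50 UMIs for Acvrl1 and 34 and 102 UMIs for Bambi.

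**Figure D5:**
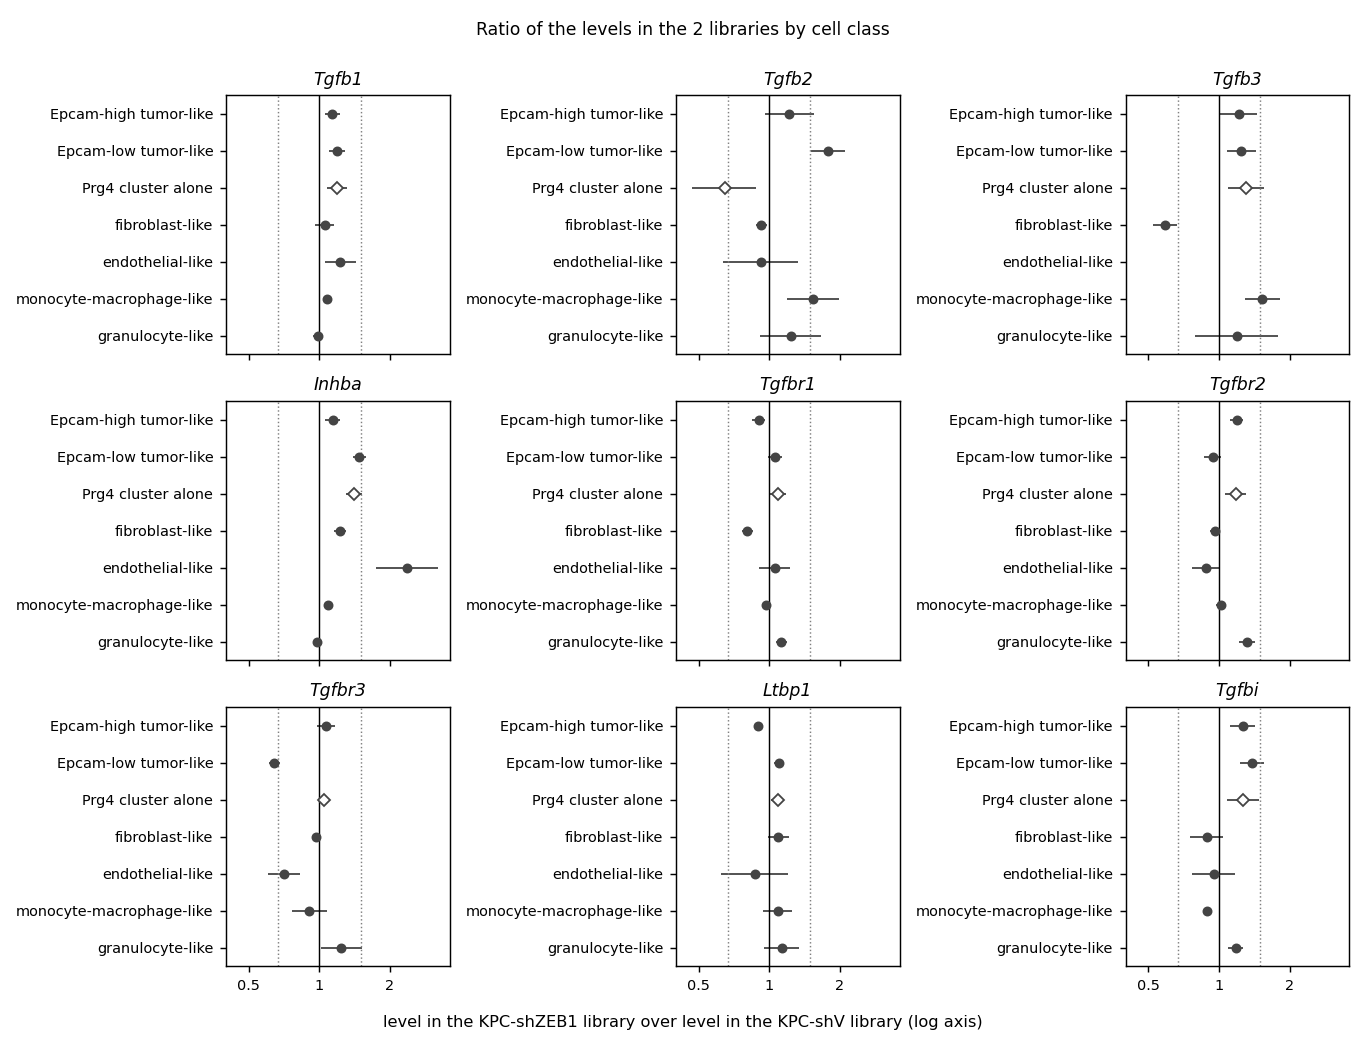
Level in the library labelled KPC-shZEB1 over level in the library labelled KPC-shV (log axis) for the 9 genes in 6 cell classes (filled circles) and in the Prg4 cluster alone (open diamonds), with 95% counting intervals and dotted lines at 1.5-fold. Ratios from fewer than 30 UMIs are not drawn. Tgfb2 lies above 1 in Epcam-low cells and under 1 in the Prg4 cluster alone, and Tgfb3 in fibroblast-like cells lies at 0.588.

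Outside the tumor-like cells, fibroblast-like cells had 1 of 9 members past 1.5-fold, beside 10.4% of genes. This was Tgfb3, at 68.7 and 40.4 CPM, a ratio of 0.588 (0.522 to 0.663). Mesothelial markers in the same cells summed to 508.5 and 329.6 CPM, and their part was not tested. Tgfb2 in fibroblast-like cells, the bulk of that transcript, had a ratio of 0.925 (0.876 to 0.978).

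Monocyte-macrophage-like cells had 2 of 9 members past 1.5-fold, Tgfb2 and Tgfb3, both at 1.53 and both from levels at or under 11.9 CPM, beside 9.56% of genes. None of the 9 members passed in granulocyte-like cells, beside 23.3% of genes, where the median log2 ratio of all genes was 0.28 and that of the members 0.24. Inhba had a ratio of 1.09 (1.06 to 1.12) in monocyte-macrophage-like cells and of 0.979 (0.946 to 1.01) in granulocyte-like cells, or 0.807 when divided by the median ratio of the genes in that class. Its level within granulocyte-like cells thus moved less than its share of UMIs held by them, and the number of these cells was 6865 and 4320.

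Endothelial-like cells had 1 of 8 tested members past 1.5-fold, beside 12.8% of genes. Inhba was 26.7 and 63.0 CPM there, a ratio of 2.36 (1.75 to 3.21) over 148 and 82 cells, and the 5 cells with the most UMIs held 24.0% and 50% of them. In mature dendritic-like cells, 38 and 102 cells, 3 of 5 tested members passed, beside 12.2% of genes. Tgfb1 had 11 and 107 UMIs there, a ratio of 3.17 (1.70 to 6.54), and Inhba and Tgfbi had ratios of 2.85 and 5.37 from 8 and 4 UMIs in the KPC-shV library.

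B-like cells had 3 of 8 tested members past 1.5-fold, beside 8.06% of genes, with Inhba at 1.68, Tgfbr3 at 2.86 (from 5.17 and 14.8 CPM) and Tgfbi at 2.63. CD4 T-like cells had 2 of 7, beside 8.82% of genes, with Inhba at 1.75 and Tgfbr3 at 1.79. CD8 T-like cells had 2 of 7, beside 8.24% of genes, with Tgfbr3 at 1.51 and Tgfbi at 1.77. Inhba and Tgfbi are genes of the monocyte-macrophage-like cells, whose markers summed to 523 and 1745 CPM in CD4 T-like cells, 501.6 and 1581 CPM in CD8 T-like cells and 552 and 1934 CPM in mature dendritic-like cells, with the B-like values given above, and their part was not tested. No tested member passed in NK-like, conventional dendritic-like or regulatory T-like cells, beside 8.82%, 9.81% and 9.98% of genes.

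The genes whose pattern over the 13 classes was most like each member were taken from 7122 genes by Pearson's r of log2(CPM + 1), the mean of both libraries. Ltbp1 was closest to Tnfrsf12a (r = 0.99), Efna5 and Bdnf, and Inhba to Olr1 (r = 0.98), Sod2 and Cebpb. Tgfb2 was closest to Prelp (r = 0.96), Fstl1 and Rbms3, and Tgfbi to Tcirg1 (r = 0.95), Mfsd1 and P2ry6. Tgfbr3 followed Rcn1 (r = 0.92), Ryk and Morf4l2, Tgfb1 followed Ptpn7 (r = 0.89), Itgal and Gab3, and Tgfb3 followed Gxylt2 (r = 0.89), Coq8b and Zfhx4. The receptors Tgfbr1 and Tgfbr2 had Cmklr1 (r = 0.88), Srxn1 and Slc7a8, and Zfp652 (r = 0.89), Mon2 and Gm15675. These values describe 13 points that share libraries and depth.

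The E-box that ZEB1 is known to bind, CAGGTG or CACCTG on the other strand, was looked for from 250 bases before to 50 bases after the starts of genes in RefSeq (GRCm38.p6). None of 9 promoters of 7 members held it, against 20.2% of 32851 promoters, and Tgfb3 and Tgfbr3 had none in the table. The absence says only that these letters are not in these windows.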

How the data were processed

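Single-cell RNA was measured in 1 tumor labelled KPC-shV and 1 labelled KPC-shZEB1. The deposited files hold raw UMI counts of genes by cell barcode, produced by the authors in Cell Ranger 7.0.1 on mm10, per the submitters' processing notes. Whether introns were counted is not given in the sources used here. Members and lists were chosen with earlier results of these data known. Coordinates come from the GENCODE annotation of GRCm38.

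As in the study's methods, cells with under 500 genes, under 1000 or over 60000 UMIs, or over 15% mitochondrial UMIs were left out. Scrublet scores above 0.2 removed 315 and 343 doublets, where the study used DoubletFinder. Both libraries were clustered together without Harmony on 3000 variable genes, leaving out the members and the pathway list, with 30 principal components, 20 neighbors and the Leiden method at resolution 1 (scanpy 1.11.5, leidenalg 0.10.2, Python 3.11.15). Clusters were named from marker lists by their detected markers. After the names had been seen, a fold criterion was dropped and the lists of both conventional dendritic subtypes were merged. Clusters without a clear name were not used in the class comparisons. Tumor-like clusters were Epcam-high at a share of at least 0.5 of the highest Epcam level.

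Levels have exact Poisson intervals, ratios exact conditional intervals and shares of cells Clopper-Pearson intervals (scipy 1.17.1), all at 95%. A count of 0 allows up to 3 counts. A ratio counted as past 1.5-fold with at least 30 UMIs over both sides and an interval excluding 1. The calculation was tested on simulated Poisson counts. These had no variation between cells or libraries, so the simulation checks the arithmetic and not the calls under such variation. One gene of the pathway list counts in its totals but is not reported here. Genes named are the members, the pathway list, Epcam, Zeb1, class markers, genes leading clusters and the 3 genes most like each member. Alternatives changed the cell filter, doublet removal, clustering, scaling, summing, background, count minimum and tumor subset.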

Additional observations from a re-analysis of the deposited data

Results flagged for a closer look

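Tgfb3 differed between the libraries in opposite directions in different classes, with a ratio (the library labelled KPC-shZEB1 over that labelled KPC-shV) of 0.588 in fibroblast-like cells and 1.53 in monocyte-macrophage-like cells. Tgfbr3 did so as well, at 2.86 in B-like, 1.79 in CD4 T-like and 1.51 in CD8 T-like cells against 0.642 in Epcam-low tumor-like cells. The B-like ratio came from low levels, 5.17 and 14.8 CPM. In the Prg4 cluster, the Epcam-low cells that both libraries held, Tgfbr3 had a ratio of 1.05 (0.985 to 1.11), so the opposite direction rests on the Zfp804b cluster, which was nearly absent from the KPC-shV library. The differences between classes were not tested.

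Tgfb2 stood at 364 CPM (316 to 419) in 26 cells of the KPC-shZEB1 library that formed an unnamed cluster led by Mmp7 and Dcdc2a, above its 228 CPM in fibroblast-like cells of that library, the highest of the 13 ordered classes, and beside 316 CPM in 10 pericyte- or smooth-muscle-like cells. The cluster, which the comparisons did not use, held 200 Tgfb2 UMIs, with Epcam at 1199 CPM, Krt8 at 2440 CPM and Cdkn2a at 20.04 CPM, and had 7 cells in the KPC-shV library.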

How the results depend on the processing

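No paired analysis was possible because each group had 1 library and no replicate number. Members past 1.5-fold between libraries in Epcam-high cells numbered 0, but 1 with the mean over cells, with the B-like level or the lowest class level subtracted, with no upper UMI limit, with no doublet removal, without the top 8% of doublet scores, at Leiden resolution 2 and without the few-UMI cluster, and 2 with a split by Epcam UMIs or a minimum of 200 genes and 500 UMIs. In Epcam-low cells the number, 2, was 4 with the B-like level subtracted, 1 without clusters of 1 library or without the top 8% of doublet scores, and 0 with the lower cell minimum or no upper UMI limit. The 4 members higher in Epcam-low than in Epcam-high cells were 1 with the split by Epcam UMIs and 2 with the lower cell minimum. The Epcam cut was set anew in each clustering, so both subsets changed in size. Epcam-high and Epcam-low cells of the KPC-shV library numbered 339 and 859 with the lower cell minimum. With no upper UMI limit they numbered 405 and 1329. The cause of the changes in these counts of members was not tested.

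Between libraries in Epcam-low cells, Tgfb2 turned to 0.649 without clusters of 1 library and 0.844 with the lower cell minimum, and Tgfbr3 to 1.05 without clusters of 1 library and 1.11 with each library clustered alone. The 1.11 compared unlike sets, 757 Epcam-low KPC-shV cells against all 1444 tumor-like KPC-shZEB1 cells. For Epcam-low over Epcam-high cells, Tgfb2 turned to 0.986 in the KPC-shZEB1 library with the split by Epcam UMIs, and with the KPC-shV library clustered alone Tgfb2 turned to 0.599, Tgfb3 to 0.944 and Inhba to 0.772. Tgfbr3 kept its call in all 17 and 16 alternatives of this comparison. Clustering each library alone, with the Epcam cut taken from the highest cluster of either library, left no Epcam-high cells in the KPC-shZEB1 library, so 2 counts could not be given. Of 164 alternatives of the 10 ratios past 1.5-fold, 137 kept the call. The highest class stayed the same for at least 8 of 9 members in 7 settings. Removal of the few-UMI cluster, subtraction of the lowest class, removal of the 5 cells with the most UMIs of each member and the limit on fibroblast markers were chosen after seeing the data. Without those 5 cells the Tgfb2 ratio between libraries in Epcam-low cells was 1.19, no longer past 1.5-fold, and that of Inhba 1.58. Low counts limit the lymphocyte and mature dendritic-like ratios.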

Other observations

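Other genes of the pathway had their own leading classes among the 13 ordered ones. Itgb8, an integrin chain that frees latent TGF-β, was highest in regulatory T-like cells at 427 and 515 CPM, as was Lrrc32, which encodes the latent TGF-β anchor GARP, at 89.8 and 99.0 CPM. Endothelial-like cells were highest in Eng, the coreceptor endoglin, at 455 and 524 CPM, and in Inhbb, the activin B subunit, at 298 and 280 CPM. Fibroblast-like cells were highest in Fbn1 (1127 and 1075 CPM) and in Thbs1 (1140 and 1124 CPM). Nrros, an anchor of latent TGF-β on myeloid cells, was highest in conventional dendritic-like cells at 283 and 254 CPM. Fst had its highest mean in Epcam-low tumor-like cells, at 43.4 and 74.4 CPM, and overlapped there with fibroblast-like cells at 39.5 and 65.5 CPM. Itgb6 was highest in Epcam-high tumor-like cells at 28.5 and 25.8 CPM. No UMI of Mstn, which encodes myostatin, was found in these classes.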
